A study of Mus musculus with 2 samples.

Results

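Granzyme-low CD8 T cells are the CD8 T cells of the tumour-bearing mouse brain that carried almost no transcript of the main cytotoxic effectors. They were selected on their own counts, so the genes of that selection describe the cells and are no finding about them. A barcode, the tag of 1 droplet and usually of 1 cell, was a member when it held at least 2 unique molecular identifiers (UMIs, each counting 1 captured transcript) of Cd3e, Cd3d and Cd3g together, at least 1 of Cd8a and Cd8b1, none of Cd4, Foxp3 and Ncr1, at most 2 of Mki67 and Top2a, at most 1 of Sox2 and Met, and fewer than 2 of Gzmb, Gzmk and Prf1. This gave 140 members of 9685 barcodes kept at 500 or more detected mouse genes and at most 10% mitochondrial UMIs, out of 15751 barcodes in all. CD8 T cells that passed every other gate but held 2 or more UMIs of Gzmb, Gzmk and Prf1 are called granzyme-positive here, and there were 163 and 281 of them in the libraries labelled wild type and knockout.

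Both libraries came from dissociated mouse brain that held implanted cells of GL261, a mouse glioma line, and was harvested at day 24. The hosts of 1 library were labelled C57BlL6 WT and those of the other Cacna1H-/-, a knockout of the gene of the T-type calcium channel Cav3.2, so each group had 1 library and both hosts received the same tumour line. The number of animals per library, their age and the deleted part of the gene are not given in the sources used here. Differences between the labels have no replicate check, no p-value is given, and each interval below is an exact 95% interval that covers counting error only.

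Naive and central memory CD8 T cells recirculate between blood and lymphoid tissue. They hold the transcription factors TCF-1 (Tcf7), Lef1 and Klf2, the lymph node homing receptor Ccr7, and S1pr1, the sphingosine-1-phosphate receptor through which T cells leave tissue. Effector CD8 T cells lower these genes and make granzymes, perforin, interferon gamma and chemokines such as Ccl5, and cells that settle in tissue hold integrins and receptors such as Itgae, Itga1 and Cxcr6. Memory cells can keep Ccl5 and Nkg7 transcripts while holding little granzyme.

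The library labelled wild type held 50 members with 460398 UMIs (medians 6651 UMIs and 2457.5 genes per barcode), and the library labelled knockout 90 members with 876647 UMIs (medians 8582.5 and 2806). Under the wild type label 44 members carried a Y-linked transcript and none Xist, whereas under the knockout label 58 carried Xist alone, 19 a Y-linked transcript alone, 3 both and 10 neither, so the second library mixes sexes. The targeted gene went against its label: over all kept barcodes Cacna1h had 13 UMIs (0.250 CPM, the UMIs per 1000000 mouse UMIs) in the library labelled wild type and 168 UMIs (1.67 CPM) in the library labelled knockout. A 3' count outside the deleted part would not show the deletion, so this does not check the label, and every direction below is between the libraries as labelled. Among the members Cacna1h had 0 UMIs, where 3 counts, the limit taken for a count of 0, would be 6.52 CPM, and 1 UMI (1.14 CPM). Cacna1g had 1 and 0 UMIs and Cacna1i none, so T-type channel transcripts were not measurable at this depth in these cells. No barcode sequence was shared between the members of the libraries. In 8 member barcodes (2 and 6) at least 10 UMIs came from markers of B cells, myeloid cells, dendritic cells, tumour cells or oligodendrocytes, and these 8 held 15.2% and 11.8% of the members' UMIs. Scrublet called 5 members doublets, 2 of them among those 8, and results that depend on the 8 are given with and without them.

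Members made up a like share of CD8 T cells in both libraries. They were 50 of 213 barcodes in the CD8 gate (23.5%, 18.0% to 29.7%) under the wild type label and 90 of 371 (24.3%, 19.98% to 29.0%) in the library labelled knockout, and the ratio was 1.03 (0.723 to 1.49). Of all kept barcodes they were 1.61% (1.20% to 2.11%) and 1.37% (1.10% to 1.68%), a ratio of 0.851 (0.596 to 1.23). No difference in share was detectable at this depth.

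The granzyme gate did not fall in a gap. Under the wild type label 30 barcodes had 0 UMIs of Gzmb, Gzmk and Prf1 together, 20 had 1, 17 had 2 and 12 had 3, and under the knockout label these were 54, 36, 25 and 13. Just inside the gate, at 1 UMI, the chemokine gene Ccl5 was at 1903 CPM and 2002 CPM, and just outside, at 2 UMIs, at 2370 CPM and 2743 CPM. Tcf7 was at 165 CPM and 217 CPM just inside and 186 CPM and 241 CPM just outside. Klf2 was at 377 CPM and 474 CPM just inside and 671 CPM and 474 CPM just outside, and Lef1 at 128 CPM and 566 CPM just inside and 298 CPM and 249 CPM just outside. Tcf7 was thus close across the gate in both libraries, whereas Lef1 was higher just outside under the wild type label and higher just inside under the knockout label. At 12 or more UMIs, where 94 and 184 barcodes lay, Ccl5 was at 5989 CPM and 7827 CPM and Tcf7 at 20.5 CPM and 18.1 CPM.

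**Figure D1:**
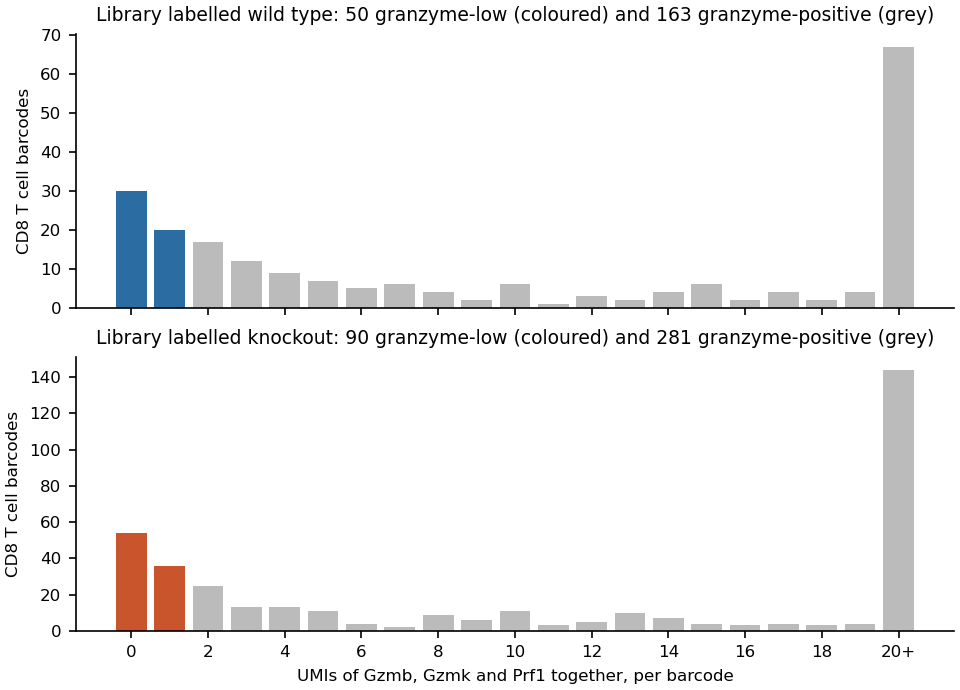
Number of CD8 T cell barcodes (vertical axis) by the summed UMIs of Gzmb, Gzmk and Prf1 per barcode (horizontal axis, 20 or more pooled), by library. Members are the barcodes at 0 and 1 UMIs, and the counts decline gradually across the gate, from 30 to 20 to 17 under the wild type label and from 54 to 36 to 25 under the knockout label.

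The T cell identity of the members was described with a gene the gates did not use. The tumour-marked and B cell barcodes set beside members here and below were chosen with no UMI of Cd3e, Cd3d and Cd3g. The tumour-marked ones also had no UMI of Ptprc. Low shares of T cell genes in them follow in part from that choice and are no test. Trac, the constant chain of the alpha beta T cell receptor (named after its values were seen), was detected in 88.0% and 91.1% of members against 1.32% and 4.25% of tumour-marked barcodes, whose median depths were 29457 and 24317.5 UMIs. The CD8 chains were gate genes, so their levels only describe the selection. Cd8a was at 458 CPM (399 to 524) and 477 CPM (432 to 525) in members and 643 CPM and 768 CPM in granzyme-positive cells. Cd8b1, the beta chain of the CD8 coreceptor, was at 532 CPM (468 to 603) and 545 CPM (497 to 596) against 738 CPM and 704 CPM. No Cd8a UMI was found in 6 and 11 members and no Cd8b1 UMI in 9 and 15.

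Of the other given markers, Lef1 was detected in 60% and 63.3% of members and 3.57% and 3.31% of B cell barcodes. Tcf7 was detected in 72.0% and 67.8% of members and 0% and 2.98% of B cell barcodes, whose median depths were 4049.5 and 7778 UMIs. S1pr1 was detected in 36.0% and 34.4% of members and 2.08% and 3.00% of tumour-marked barcodes. With each barcode thinned to 2000 UMIs the shares of members were 48.0% and 40% for Lef1, 32.0% and 25.6% for Tcf7 and 18.0% and 15.6% for S1pr1. The markers were therefore present in the population and not detected in every member.

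Against granzyme-positive cells of the same library, members held more transcript of recirculation and quiescence genes. This contrast is a description, since the members were selected on granzyme counts of the same cells, and a gene was counted only when it passed the stated fold in both libraries. Of 3110 genes with at least 100 UMIs per library over both kinds of cell, 6 were at least 2-fold higher in members (0.193%) and 31 at least 2-fold lower (0.997%). At the 1.5-fold used for gene lists these shares were 0.772% and 3.12%. A gene could reach that minimum through the granzyme-positive cells alone, where a low level in members is then a matter of the filter. Of the 2264 genes that also had 100 UMIs in the members of both libraries together, 0.972% were higher and 1.77% lower at 1.5-fold. Of 24 listed circulation and quiescence genes 14 were measured, 5 were at least 1.5-fold higher in both libraries (Lef1, Tcf7, Klf2, Bach2 and Dgka) and none was lower. The median log2 difference of the list was 0.33 and 0.95, beside medians of -0.06 and 0.02 over all measured genes.

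Lef1 was at 282 CPM (236 to 335) and 391 CPM (351 to 435) in members and at 154 CPM and 102 CPM in granzyme-positive cells, 1.83-fold and 3.84-fold higher. Tcf7 was at 180 CPM (144 to 223) and 178 CPM (151 to 208) against 63.4 CPM and 49.8 CPM, 2.84-fold and 3.57-fold higher. These partner factors maintain the naive and memory state, and both were higher in members of either library.

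Klf2, which promotes S1pr1 transcription, was at 623 CPM (553 to 700) and 546 CPM (499 to 598) against 281 CPM and 162 CPM. Bach2, a repressor of effector programmes, was at 317 CPM (268 to 373) and 457 CPM (414 to 504) against 143 CPM and 146 CPM. The log2 differences were 1.15 and 1.75 for Klf2 and 1.15 and 1.64 for Bach2. For both genes the difference was larger under the knockout label, and this difference between libraries was not tested.

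The homing and exit receptors had few UMIs, below the minimum for the counts above. S1pr1 was at 63.0 CPM (42.2 to 90.5) and 79.8 CPM (62.2 to 101) against 25.1 CPM and 20.1 CPM. Ccr7 was at 71.7 CPM (49.3 to 101) and 62.7 CPM (47.3 to 81.7) against 5.16 CPM and 16.8 CPM. Both receptors stood above the granzyme-positive level in both libraries. Dapl1 was at 71.7 CPM and 73.0 CPM against 2.95 CPM and 9.56 CPM, and Nsg2 at 45.6 CPM and 90.1 CPM against 8.85 CPM and 6.27 CPM. The survival gene Bcl2 did not follow this pattern, with 1268 CPM and 1268 CPM against 1473 CPM and 1270 CPM. Foxo1, a factor upstream of Klf2, was at 146 CPM and 179 CPM against 204 CPM and 182 CPM.

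The 6 genes past 2-fold in both libraries were Tnfsf8, Aff3, Pecam1, Tcf7, Klf2 and Bach2. Tnfsf8, which encodes CD30 ligand, was at 180 CPM and 114 CPM against 31.7 CPM and 21.8 CPM, 5.68-fold and 5.24-fold higher, and conventional CD4 T cells had 652 CPM and 800 CPM. Aff3, a nuclear protein of lymphoid cells, was at 254 CPM and 348 CPM against 71.6 CPM and 70.2 CPM. Pecam1, the adhesion molecule CD31, was at 102 CPM and 116 CPM against 45.00 CPM and 40.2 CPM. Tnfsf8 thus separated members from granzyme-positive CD8 cells but was higher still in CD4 T cells.

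Many effector genes outside the selection were lower in members. Of 30 listed genes of effector cytotoxicity 24 were measured, and 14 were lower by 1.5-fold or more in both libraries and none higher. Of these 14, Fasl, Gzmc, Ifng, Serpinb6b and Serpinb9 reached the UMI minimum only with the granzyme-positive cells. Of the 18 that also had 100 UMIs in members 9 were lower, with median log2 differences over the 18 of -0.60 and -1.39. Gzma, granzyme A, was not a gate gene and was at 326 CPM and 601 CPM against 6690 CPM and 7488 CPM. A single barcode held 79.3% and 72.9% of the members' Gzma UMIs, and 10 and 19 members had any. Named after their values were seen, Ifng, interferon gamma, was at 80.4 CPM and 50.2 CPM against 190 CPM and 203 CPM, and Fasl, the ligand of the death receptor Fas, at 41.3 CPM and 49.1 CPM against 137 CPM and 128 CPM. Other effector genes did not pass in both libraries, among them Ccl4 at 736 CPM and 300 CPM against 793 CPM and 1576 CPM.

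Members still held transcripts of the cytotoxic lineage. Ccl5 was at 1929 CPM (1804 to 2060) and 2353 CPM (2253 to 2457), which is 2.83-fold and 3.21-fold below the 5455 CPM and 7562 CPM of granzyme-positive cells, while conventional CD4 T cells had 307 CPM and 388 CPM. It was detected in 66.0% and 84.4% of members and 17.0% and 38.9% of tumour-marked barcodes, and at 2000 UMIs per barcode in 58.0% and 67.8% of members and 3.21% and 6.77% of tumour-marked barcodes. Nkg7, a protein of cytotoxic granules, was at 1219 CPM (1120 to 1324) and 1161 CPM (1091 to 1235) against 2196 CPM and 2172 CPM and was detected in 94.0% and 94.4% of members. Tumour-marked barcodes had Nkg7 in 5.47% and 9.62%. Ly6c2, an antigen of memory CD8 cells, was at 730 CPM and 757 CPM against 918 CPM and 683 CPM, and CD4 T cells had 42.1 CPM and 69.7 CPM. The members thus stood between CD4 T cells and granzyme-positive CD8 cells in Ccl5.

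A minority of tissue residence genes were lower in members. Of 14 measured residence genes 3 were at least 1.5-fold lower in both libraries (Cxcr6, Itga1 and Litaf) and none was higher, and Itga1 reached the UMI minimum only with the granzyme-positive cells. Cxcr6 was at 63.0 CPM (42.2 to 90.5) and 114 CPM (92.8 to 139) against 295 CPM and 284 CPM. Itga1, the collagen-binding integrin chain CD49a, was at 54.3 CPM (35.1 to 80.2) and 29.7 CPM (19.4 to 43.5) against 204 CPM and 179 CPM. Itgae, the integrin chain CD103, was at 15.2 CPM (6.11 to 31.3) and 81.0 CPM (63.3 to 102) against 111 CPM and 95.6 CPM, and was found in 3 and 20 members. Itgae was thus low in the members labelled wild type and near the granzyme-positive level in those labelled knockout. Itgb1, an integrin beta chain, was higher in members at 293 CPM and 337 CPM against 183 CPM and 195 CPM.

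**Figure D2:**
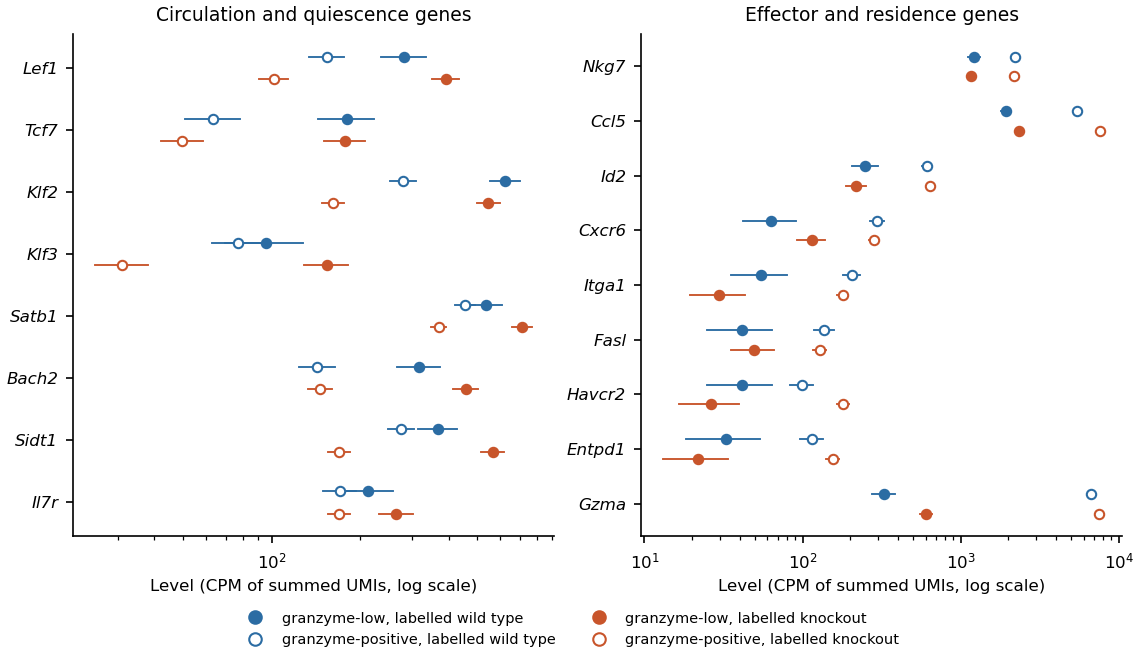
Levels in CPM of summed UMIs (log axis) of circulation and quiescence genes and of effector and residence genes in granzyme-low members and granzyme-positive cells of each library, with exact 95% counting intervals. Tcf7, Klf2 and Bach2 are higher in members, and Nkg7, Ccl5, Cxcr6, Itga1 and Gzma are lower, in both libraries.

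Of 9 measured checkpoint genes Havcr2, Lag3 and Entpd1 were at least 1.5-fold lower in members of both libraries and none was higher. All 3 reached the UMI minimum only with the granzyme-positive cells, and of the 5 that also had 100 UMIs in members none was lower. Havcr2 (TIM-3) was at 41.3 CPM and 26.2 CPM against 98.8 CPM and 180 CPM, in 9 and 3 members. Pdcd1 (PD-1) was at 119 CPM (90 to 155) and 76.4 CPM (59.2 to 97.1) against 152 CPM and 212 CPM. Tox, a factor of chronically stimulated T cells, was at 445 CPM and 520 CPM against 369 CPM and 498 CPM. Tox was thus not lower in members of either library. Slamf6, a receptor of stem-like CD8 cells, was at 89.1 CPM and 148 CPM against 33.9 CPM and 37.3 CPM, below the UMI minimum. Of 24 T cell receptor genes, 5 of them gate genes, the 1 lower was the gate gene Cd3g. None of 19 MHC class I, 30 ribosomal protein, 19 calcium signalling, 12 glycolysis and 27 immediate early or heat shock genes passed 1.5-fold in both libraries.

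Within the members Ccr7, S1pr1 and Lef1, called exit genes for short although Lef1 is a transcription factor, were not spread evenly. Of the 3 genes Ccr7, S1pr1 and Lef1, at least 2 were detected in 21 of 50 members labelled wild type (42%, 28.2% to 56.8%) and 34 of 90 labelled knockout (37.8%, 27.8% to 48.6%), against 13.5% and 12.5% of granzyme-positive cells. At 2000 UMIs per barcode these shares were 22% and 13.3% against 4.32% and 3.56%. Members with at least 2 of the genes were the shallower ones, with medians of 6393 and 8137.5 UMIs against 8346 and 9054.5. In the library labelled knockout 10 of 19 male and 20 of 58 female members had at least 2. This division was defined by values already seen, and the genes named in this and the next 2 paragraphs were chosen after their values were seen.

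Members with at least 2 of these genes also differed from the others in genes the division did not use. Klf2 was at 1525 CPM and 1080 CPM against 201 CPM and 282 CPM, and Il7r, the interleukin 7 receptor of long-lived T cells, at 313 CPM and 447 CPM against 166 CPM and 176 CPM. Il2ra (CD25), induced by activation, was at 0 CPM and 6.88 CPM against 233 CPM and 121 CPM. Id2, a factor of effector differentiation, was at 95.3 CPM and 68.8 CPM against 322 CPM and 294 CPM. Klf2 and Il7r were thus higher and Il2ra and Id2 lower in both libraries. Pdcd1 was at 6.81 CPM and 58.5 CPM against 172 CPM and 85.3 CPM. Ccl5 was at 2689 CPM and 3126 CPM against 1573 CPM and 1970 CPM, and Nkg7 at 1007 CPM and 884 CPM against 1317 CPM and 1299 CPM. Both groups therefore held Ccl5 and Nkg7, with more Ccl5 and less Nkg7 where the exit genes were found. Without the 8 barcodes Klf2 was at 1525 CPM and 1075 CPM against 259 CPM and 266 CPM and Il2ra at 0 CPM and 8.11 CPM against 238 CPM and 135 CPM.

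A further group of members lacked Cd8b1. No Cd8b1 UMI was found in 9 of 50 members labelled wild type and 15 of 90 labelled knockout, which entered the gate through Cd8a. Klra6 or Klra7, inhibitory Ly49 receptors for MHC class I, was found in 6 of those 9 (66.7%, 29.9% to 92.5%) and 13 of those 15 (86.7%, 59.5% to 98.3%). Among members with Cd8b1 it was found in 0 of 41, where 3 counts would be 7.32%, and 7 of 75 (9.33%, 3.84% to 18.3%). Granzyme-positive cells held such barcodes too. Among them Klra6 or Klra7 was found in 5 of 9 and 15 of 25 without Cd8b1, and in 14 of 163 and 28 of 281 in all. The group was thus not particular to members. Klra6 and Klra7 have near-identical relatives, so their UMIs are uncertain between family members. Members with a Klra6 or Klra7 UMI are set against those without in what follows. Ikzf2, the transcription factor Helios, was at 1277 CPM and 1592 CPM against 234 CPM and 401 CPM. Cd7, a receptor of T and NK cells, was at 344 CPM and 630 CPM against 40.5 CPM and 89.5 CPM. Cd6, an adhesion receptor of conventional T cells, was at 24.6 CPM and 51.2 CPM against 267 CPM and 169 CPM, and Ctla4 at 0 CPM and 71.7 CPM against 498 CPM and 501 CPM. Ikzf2 and Cd7 were thus higher and Cd6 and Ctla4 lower in both libraries. Cd3e, of the T cell receptor complex, was at 467 CPM and 450 CPM against 334 CPM and 462 CPM, and Trac at 221 CPM and 537 CPM against 441 CPM and 496 CPM. Trdc, the delta chain constant gene, had 0 UMIs and 1 UMI in these barcodes, and Ncr1 was 0 by selection. Other listed genes of gamma delta T and NK cells were not absent. Over all members the 4 gamma delta genes (Trdc, Tcrg-C1, Tcrg-C2 and Tcrg-C4) held 60 and 102 UMIs. The 4 NK genes (Ncr1, Klrb1c, Klre1 and Eomes) held 52 and 147 UMIs. Whether barcodes with a Klra6 or Klra7 UMI belong to either cell type was not tested. Without the 8 barcodes 6 of 8 and 13 of 14 members lacking Cd8b1 had a Klra6 or Klra7 UMI.

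**Figure D3:**
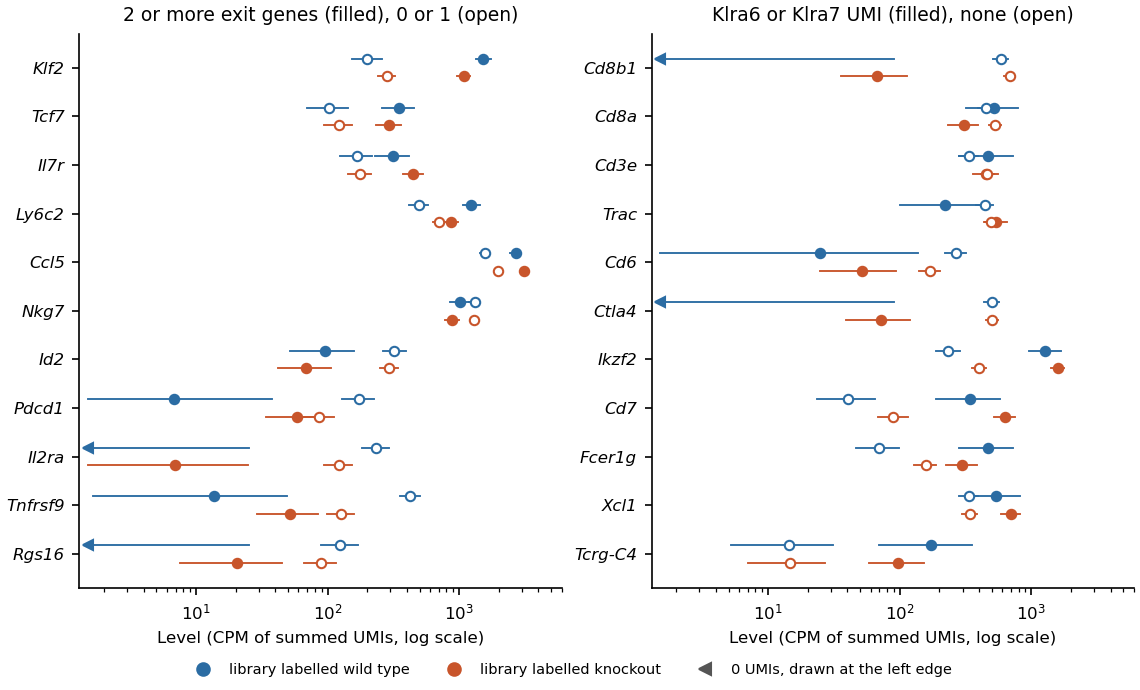
Levels in CPM of summed UMIs (log axis) inside the granzyme-low members of each library, with exact 95% counting intervals. In members with 2 or more of Ccr7, S1pr1 and Lef1 (filled) Klf2 is higher and Il2ra and Id2 are lower than in those with 0 or 1 (open), and in members with a Klra6 or Klra7 UMI (filled) Ikzf2 and Cd7 are higher and Cd6 is lower than in those without (open); arrows at the left edge mark 0 UMIs.

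Between the labels, summed over all members, 2292 genes had at least 100 UMIs. Past 2-fold, 49 genes were higher (2.14%) and 24 lower (1.05%) in members labelled knockout, and at 1.5-fold the shares were 8.86% and 5.15%. In 29 of the 73 genes past 2-fold a single barcode held at least 50% of the UMIs of the library where the gene was higher. Cstb, a protease inhibitor gene, had 652 UMIs and 63 UMIs, 96.0% of those labelled wild type in 1 barcode, and its log2 ratio of the knockout over the wild type label was -4.30 with and 0.26 without the 8 barcodes. Nrxn3, a neuronal adhesion gene, had 131 UMIs in 1 barcode labelled knockout and 0 in every other member. That barcode was not among the 8, and the log2 ratio of Nrxn3 without the 8 was 4.46. Without the 8 barcodes 1971 genes were measured and 19 were higher and 8 lower, of which 25 were also called with them. The count of called genes thus rested largely on few barcodes, and single genes are read below with and without the 8. Shares over all genes at 1.5-fold were not computed without the 8, so the list counts without them have no background share.

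**Figure D4:**
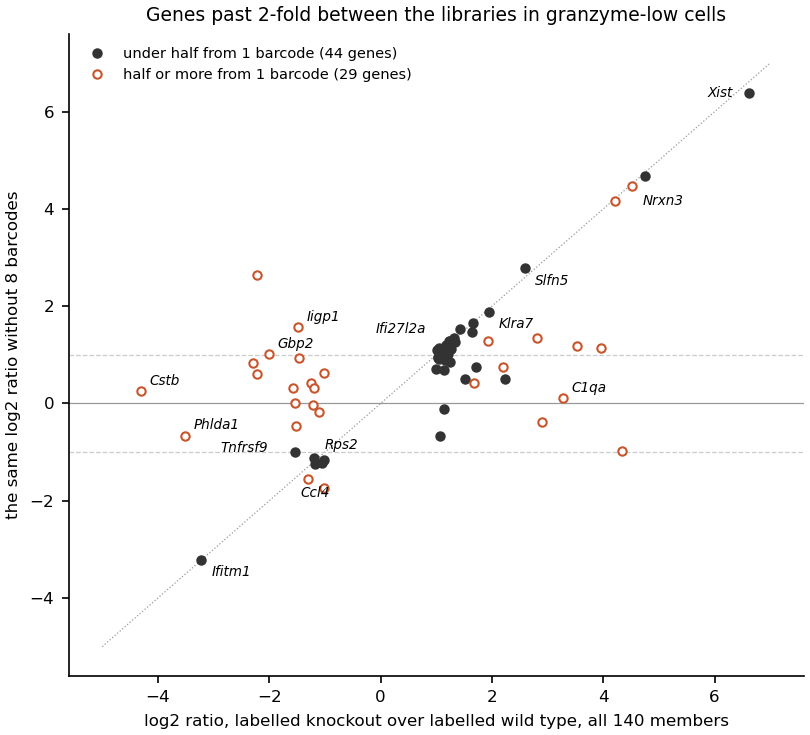
Log2 ratio of CPM, library labelled knockout over library labelled wild type, for the 73 genes past 2-fold, over all members and without the 8 barcodes that held markers of other cells. The 29 genes with at least 50% of UMIs in 1 barcode are marked apart, among them Cstb, which lies at -4.30 with and 0.26 without the 8, whereas Ifitm1 lies at -3.22 and -3.21.

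Interferon-stimulated genes are those that cells transcribe when interferons signal through STAT factors. Those of the interferon list were more often higher than lower under the knockout label. Ifitm1, interferon-inducible but outside the list, and its family member Ifitm2 were lower, with log2 ratios of -3.22 and -1.02. Without the 8 barcodes these were -3.21 and -1.17. Of 34 measured genes of the interferon list 12 were at least 1.5-fold higher and 4 lower, with a median log2 ratio of 0.50 beside 0.03 over all genes. Without the 8 barcodes 12 of 28 were higher and 1 lower, with a median of 0.53 beside 0.008 over all genes. Over the alternative settings run the list median lay between 0.36 and 0.62. Of the 4 lower genes Gbp2, Iigp1 and Igtp, all interferon-induced GTPases, had 88.6%, 92.2% and 68.6% of their UMIs labelled wild type in 1 barcode. Their log2 ratios were -2.0, -1.49 and -1.19 with the 8 barcodes and 1.01, 1.57 and 0.32 without, where Gbp2 and Iigp1 were under the UMI minimum. Ifi206, named after its values were seen, had 65 UMIs and 55 UMIs in 33 and 33 members and log2 ratios of -1.17 with and -1.25 without the 8.

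Ifi27l2a, a small interferon-induced protein, had 231 UMIs and 1103 UMIs, 502 CPM (439 to 571) and 1258 CPM (1185 to 1335), in 39 and 80 members, with a log2 ratio of 1.33 (1.12 to 1.54). Ifit1, which binds foreign RNA, had 23 UMIs and 102 UMIs, 49.96 CPM (31.7 to 74.96) and 116 CPM (94.9 to 141), in 14 and 39 members, with a log2 ratio of 1.22 (0.56 to 1.94). Slfn5, of the Schlafen family, had 9 UMIs and 103 UMIs, 19.5 CPM (8.94 to 37.1) and 117 CPM (95.9 to 142), in 7 and 32 members, with a log2 ratio of 2.59 (1.61 to 3.76). All 3 were higher under the knockout label, and their intervals exclude equality for counting error. Without the 8 barcodes their log2 ratios were 1.35, 1.29 and 2.79, the last below the UMI minimum. Named after their values were seen, Ifit3 was at 69.5 CPM and 156 CPM, Isg15 at 204 CPM and 352 CPM and Samd9l at 71.7 CPM and 148 CPM.

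The same contrast in other T cells of these libraries had smaller list medians. In granzyme-positive cells 3 of 36 measured interferon genes were at least 1.5-fold higher and 1 lower, with a median log2 ratio of 0.08. In conventional CD4 T cells 9 of 36 were higher and 1 lower, with a median of 0.28. The shares over all genes in these classes were not computed, so the counts have no background beside them. Some single genes, among them Bst2 and Gbp4, had a larger ratio in CD4 T cells than in members. Ifit1 was at 53.1 CPM and 72.2 CPM in granzyme-positive cells and 57.9 CPM and 76.7 CPM in CD4 T cells. Slfn5 was at 56.1 CPM and 51.1 CPM in the former and 92.2 CPM and 118 CPM in the latter. Ifi27l2a was at 569 CPM and 928 CPM in granzyme-positive and 1602 CPM and 2642 CPM in CD4 T cells. Ifi206 was at 129 CPM and 60.7 CPM in granzyme-positive and 76.4 CPM and 25.4 CPM in CD4 T cells. It was thus lower under the knockout label in these classes as in members. With 1 library per label the difference between these cell classes was not tested.

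Members of both sexes were found in 1 library only, so the same genes were read in male members, 44 and 19 barcodes. Ifi27l2a was at 508 CPM in male members labelled wild type, 990 CPM in male and 1408 CPM in female members labelled knockout, and the log2 ratio between the males was 0.96 (0.66 to 1.27). Ifit1 was at 31.1 CPM in male members labelled wild type, 52.7 CPM in male and 145 CPM in female members labelled knockout, with a male ratio of 0.76 (-0.67 to 2.13). Slfn5 was at 18.1 CPM in male members labelled wild type, 46.9 CPM in male and 148 CPM in female members labelled knockout, with a male ratio of 1.37 (-0.29 to 3.06). Of these 3 genes Ifi27l2a alone had a male interval above equality, and for female members sex and label cannot be told apart.

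The windows before Ifit1 and Slfn5 are shown because interferon-stimulated genes share a known promoter element and both genes were higher here. The letters GAAANNGAAA, those of the interferon-stimulated response element, were searched on both strands in the 250 bases before the start of genes in RefSeq (build GRCm38.p6). Of 45 interferon list genes 33 had a window and 19 of these (57.6%) held the letters, against 3.46% of 27025 genes with a window. Of the 9 genes with a window among the 12 higher ones 6 held them, as did all 3 with a window among the 4 lower ones. The lower ones with a window were Ifi206, Igtp and Gbp2. Without the barcodes that held other cells' markers, their log2 ratios of the knockout over the wild type label were -1.25, 0.32 and 1.01. Gbp2 was then under the UMI minimum. The letters thus occurred in genes of both sets, but of these lower genes Ifi206 alone stayed lower. Whether the letters go with the direction was not tested. Each run is 5′ to 3′ on the plus strand, the gene's own, with the matches in capitals. Ifit1 (chr19:34640639-34640888) has 2, at 104 and 85 bases before the start, and Slfn5 (chr11:82951852-82952101) has 1, at 155 bases. A match says only that the letters are present.
Ifit1: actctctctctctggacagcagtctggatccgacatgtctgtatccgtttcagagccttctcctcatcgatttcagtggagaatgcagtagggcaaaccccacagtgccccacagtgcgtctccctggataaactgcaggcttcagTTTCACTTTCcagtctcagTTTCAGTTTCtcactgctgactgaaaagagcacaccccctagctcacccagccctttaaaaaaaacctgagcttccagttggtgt
Slfn5: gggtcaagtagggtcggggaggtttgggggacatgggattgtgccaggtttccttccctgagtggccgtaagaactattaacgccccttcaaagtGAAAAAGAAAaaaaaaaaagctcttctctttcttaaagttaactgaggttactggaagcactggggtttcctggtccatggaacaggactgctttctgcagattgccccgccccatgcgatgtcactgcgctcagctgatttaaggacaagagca

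**Figure D5:**
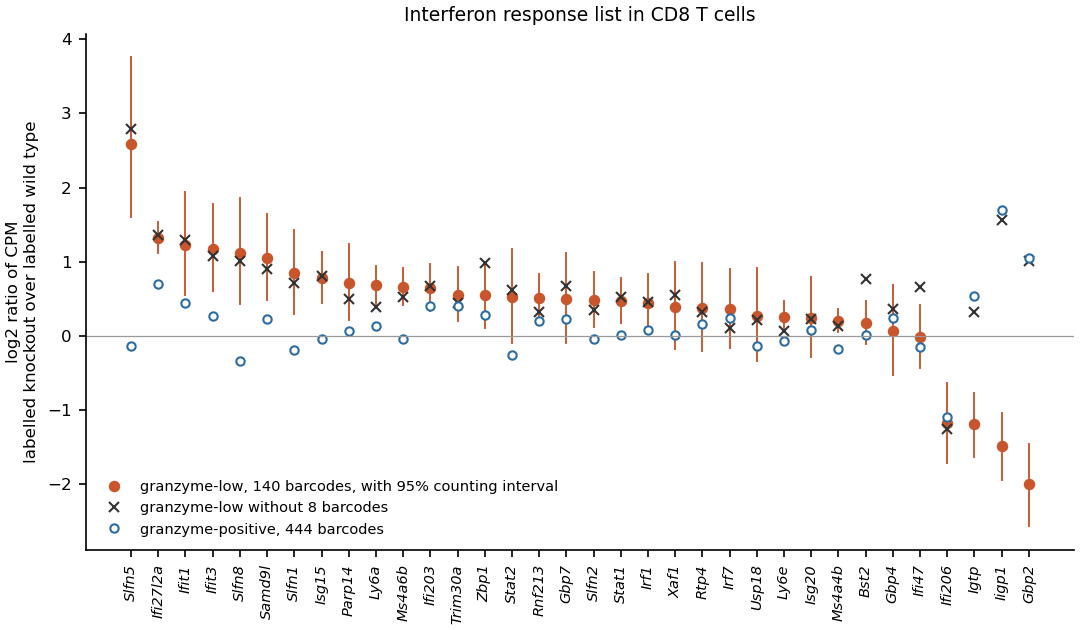
Log2 ratio of CPM, library labelled knockout over library labelled wild type, for the 34 measured genes of the interferon list in granzyme-low members, with exact 95% counting intervals, beside the same members without the 8 barcodes and the granzyme-positive cells. Gbp2, Iigp1 and Igtp lie at -2.0, -1.49 and -1.19 with the 8 barcodes and at 1.01, 1.57 and 0.32 without.

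Dnah8 and Rps2 differed between the labels in the same direction in every T cell class compared. Dnah8, a dynein heavy chain gene, was at 39.1 CPM (23.2 to 61.8) and 123 CPM (101 to 149) in members, 14.0 CPM and 94.3 CPM in granzyme-positive and 18.4 CPM and 82.3 CPM in CD4 T cells. The ribosomal protein gene Rps2 was at 4281 CPM (4094 to 4474) and 1876 CPM (1787 to 1969), 3774 CPM and 1738 CPM and 2718 CPM and 1330 CPM in the same order. Dnah8 was higher and Rps2 lower under the knockout label in all 3 classes. Rps2 (chr17:24718116-24721929, plus strand) and Dnah8 (chr17:30624354-30877365, plus strand) lie on the chromosome of Cacna1h (chr17:25374285-25433783, minus strand, GRCm38).

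Cd7 and Klra7 were higher under the knockout label in members and in CD4 T cells and near equal between the labels in granzyme-positive cells. Cd7 had 31 UMIs and 184 UMIs, 67.3 CPM (45.7 to 95.6) and 210 CPM (181 to 243), in 13 and 36 members, and granzyme-positive cells had 111 CPM and 114 CPM. Klra7 had 13 UMIs and 95 UMIs, 28.2 CPM (15.03 to 48.3) and 108 CPM (87.7 to 132), in 4 and 16 members, and granzyme-positive cells had 73.8 CPM and 84.4 CPM. CD4 T cells held little of either, with 2 and 86 UMIs of Cd7 (2.63 CPM and 20.1 CPM) and 0 and 38 UMIs of Klra7. Klra7 is a gene by which the Ly49-bearing members were defined, and these were 6 of 50 and 20 of 90. Cd7 was higher in the Ly49-bearing members but was also found in other members. Cd7 was at 59.6 CPM in male members labelled wild type, 64.4 CPM in male and 278 CPM in female members labelled knockout, with a male log2 ratio of 0.11 (-1.07 to 1.21), so no difference was detectable between males. Klra7 had a male ratio of 1.48 (0.33 to 2.65).

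Among the genes most reduced in members labelled knockout were Tnfrsf9, Ccl4 and Ifitm1. Tnfrsf9 (4-1BB), induced by T cell receptor stimulation, was at 293 CPM (246 to 347) and 102 CPM (81.5 to 125), with log2 ratios of -1.53 with and -1.0 without the 8 barcodes. Ccl4, a chemokine of activated T cells, was at 736 CPM (660 to 819) and 300 CPM (265 to 339), with log2 ratios of -1.30 and -1.54. A single barcode held 51.3% of its 339 UMIs labelled wild type. Without the 8 barcodes 280 UMIs remained, so that barcode was not among the 8. Ifitm1, an interferon-inducible membrane protein, was at 489 CPM (427 to 557) and 52.5 CPM (38.4 to 69.99) in only 9 and 12 members, and 1 barcode held 44.9% and 58.7% of its UMIs. All 3 went the other way in granzyme-positive cells, where Tnfrsf9 was at 251 CPM and 340 CPM, Ccl4 at 793 CPM and 1576 CPM and Ifitm1 at 641 CPM and 2158 CPM. In CD4 T cells Tnfrsf9 was at 781 CPM and 637 CPM and Ccl4 at 3081 CPM and 1983 CPM, lower under the knockout label as in members, and Ifitm1 was at 420 CPM and 1064 CPM, higher. In members with no UMI of Gzmb, Gzmk and Prf1, 30 and 54 barcodes, the log2 ratios were 1.93 for Ccl4 and 0.38 for Tnfrsf9. The direction of Ccl4 and Tnfrsf9 therefore changed when members that held 1 such UMI were left out. The part of single barcodes in this change was not tested.

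Circulation genes passed 1.5-fold between the labels with the 8 barcodes and not without them. Past 1.5-fold, 5 of 16 measured genes had more transcript in members labelled knockout and 0 had less (median 0.42), and without the 8 barcodes none of 14 was higher or lower (median 0.23). Lef1 had a log2 ratio of 0.47 (0.18 to 0.77) with and 0.25 (-0.05 to 0.56) without the 8, and Tcf7 of -0.02 (-0.41 to 0.38) and -0.16 (-0.56 to 0.25). S1pr1 had 0.34 (-0.30 to 1.02) and 0.01 (-0.65 to 0.71), and Klf2 -0.19 (-0.40 to 0.03) and -0.49 (-0.71 to -0.27). Tcf7 and S1pr1 thus showed no detectable difference, and Klf2 was lower under the knockout label without the 8.

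Of 18 measured effector genes 3 were higher and 5 lower under the knockout label (median -0.18), and without the 8 barcodes 2 of 16 were higher and 3 lower (median -0.14). Of 11 residence genes Cd69, Cxcr6 and Cd7 were higher and none lower (median 0.34), and without the 8 barcodes 2 were higher (median 0.23). Cd69, an early activation and residence receptor that opposes S1pr1, was at 306 CPM (258 to 361) and 486 CPM (441 to 534), with log2 ratios of 0.67 with and 0.53 without the 8, the latter under 1.5-fold. MHC class I genes (1 of 18 higher, none lower), T cell receptor genes (none of 24 higher, 1 lower), calcium signalling genes (none of 17) and ribosomal protein genes (2 of 30 higher, 1 lower) held few past 1.5-fold, at or below the shares over all genes. With the 8 left out, 2 of 18 MHC class I genes were higher and 1 of 24 T cell receptor genes was higher and 1 lower. Glycolysis genes had a median of -0.48 with 1 of 9 lower, and of -0.30 without the 8 barcodes. The myeloid genes Lyz2, C1qa, C1qb and Apoe were all higher (median 3.41), and without the 8 barcodes none reached the UMI minimum. The summed level of the 8 listed myeloid markers was 115 CPM and 1047 CPM with the 8 barcodes and 92.2 CPM and 98.3 CPM without, and Adgre1 was at 0 under the wild type label. The part of these markers in the smaller differences was not tested.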

How the data were processed

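The 2 single-cell 3' RNA libraries of dissociated tumour-bearing mouse brain, 1 per label, were deposited as UMI counts per gene and barcode, with gene names and barcodes in separate lists, per the file headers and values. The submitters' processing notes name Cell Ranger 7.1.0, Seurat 5.0.2 and mm10. What Seurat was used for: not given in the sources used here. Among deposited features were 32285 mouse and 36601 human genes, and levels were computed from mouse genes alone.

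Kept barcodes had 500 or more mouse genes and no more than 10% of UMIs from mitochondrial genes, 3110 and 6575 of 7382 and 8369, and median depths of the kept barcodes were 12522.5 and 11071 UMIs. Members were chosen by the gates given above, and members and gene lists were chosen with earlier results of these data known. UMIs were summed per library and cell class and divided by the summed mouse UMIs (CPM). Levels carry exact Poisson intervals, ratios exact conditional intervals and shares exact binomial (Clopper-Pearson) intervals at 95%, all for counting error only. Genes needed 100 UMIs over the classes compared (within each library for the contrast with granzyme-positive cells), and were called by size, 2-fold for all genes and 1.5-fold for lists, with 3 counts standing for a count of 0. With 1 library per label no test was made.

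Named genes were the 12 highest and 12 lowest past 2-fold in each contrast with at least 50 CPM and 20% of the highest level in tumour, myeloid, B cell and oligodendrocyte barcodes, the markers, gate genes, T-type channels, every circulation gene and the leading members of each other list. Others are said to be chosen after their values were seen. Doublets were called with Scrublet in scanpy 1.11.5 (77 and 164 barcodes) and removed only as an alternative. In the library labelled wild type the automatic threshold marked 0.289%, so the expected rate was used there. Intervals came from scipy 1.17.1, tables from pandas 2.3.3 and numpy 2.4.6 under Python 3.11.15, figures from matplotlib 3.10.9, and the interval code was tested on simulated data. Alternatives were doublet removal, a 5% mitochondrial limit, 1000 genes, no granzyme UMI, 2 CD8 UMIs, thinning to 2000 UMIs, male barcodes, median of ratios scaling, cells weighted alike, 50 UMIs and, added after seeing the data, removal of barcodes with at least 10 UMIs of other cells' markers.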

Additional observations from a re-analysis of the deposited data

Results flagged for a closer look

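Of 281 measured genes of the lists, 95 had log2 ratios of granzyme-low over granzyme-positive cells of opposite sign in the libraries, and for 5 of them both ratios were past 1.5-fold. Of all 3110 measured genes 1332 had opposite signs, and for 19 of them both ratios were past 1.5-fold. Opposite signs were thus not particular to the listed genes. These differences were not tested. Cd7 was at -0.72 in the library labelled wild type and at 0.88 in that labelled knockout. Slfn8, an interferon-stimulated gene, was at -0.83 and 0.63, and Tgfbr1, a receptor for TGF-beta, at -0.76 and 0.91. Gbp2 was at 2.24 and -0.81, with 88.6% of the members' UMIs labelled wild type in 1 barcode. Lyz2, a myeloid gene, was at -2.10 and 1.14, with 58.4% of the members' UMIs labelled knockout in 1 barcode. UMIs assigned to human genes, outside the mouse genes measured here, were at 274.8 per 1000000 UMIs in members labelled knockout and 134.6 in members labelled wild type. These levels rested on 241 and 62 UMIs. In the same order they were 190.6 and 146.2 over all kept barcodes and 171.8 and 137.9 in granzyme-positive cells. B cell barcodes went the other way, at 168.0 and 224.6.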

How the results depend on the processing

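Of 60 values of the main counts and shares under alternatives 47 stayed near the main value and 13 moved. Against 49 genes higher and 24 lower under the knockout label, there were 9 and 1 after thinning to 2000 UMIs, 5 and 15 in male cells, 139 and 92 at 50 UMIs, and 19 and 8 without the 8 barcodes that held other cells' markers. With at least 2 CD8 UMIs 10 were lower. Against 6 genes higher and 31 lower than in granzyme-positive cells, there were 2 and 7 after thinning, where fewer genes reached the UMI minimum, and 3 higher in male cells and 18 higher at 50 UMIs. The log2 ratio of shares between the labels lay between -0.36 and -0.05 of kept barcodes and between -0.33 and 0.08 of the CD8 gate.

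Of the other values 1005 stayed near, 228 moved and 28, all log2 ratios of single genes past 2-fold between the labels, changed sign. Among the near and moved values 57 smaller ones changed sign too, 45 list medians and 12 genes between the labels. The median of checkpoint genes between the labels ran from -0.38 to 0.49 beside -0.27, that of costimulation genes from -0.47 to 0.37 beside -0.13. Without the 8 barcodes the 28 were Aig1 0.32, Bag1 0.41, Cd63 0.82, Cd9 0.60, Cstb 0.26, Gbp2 1.01 and Iigp1 1.57. With at least 2 CD8 UMIs they were Aig1 0.62, Bag1 0.32, Cd63 4.26, Cd9 0.66, Cstb 0.093, Gbp2 0.78 and Iigp1 1.84. After thinning Bag1 was at 0.11, Cd63 at 0.11, Gbp2 at 0.35 and Iigp1 at 1.35. In male cells Aig1 was at 0.33, Bag1 at 0.59, Cd63 at 0.18, Cd9 at 0.18 and Iigp1 at 0.69. Iigp1 was at 0.42 with cells weighted alike. Nrxn3 was at -0.91 with called doublets removed and -0.96 with no granzyme UMI. Its 131 UMIs lay in 1 barcode, and without that barcode both libraries had 0, with 3 counts standing for each. These Nrxn3 values therefore give only the ratio of summed UMIs and no lower level under the knockout label. With no granzyme UMI Ccl4 was at 1.93 and Tnfrsf9 at 0.38. The cause of the other changes was not tested. No paired analysis was possible because each label has 1 library. With 50 and 90 members, genes under 100 UMIs were kept out of the counts, and their printed values are imprecise.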
